A study of Homo sapiens
Mus musculus with 6 samples.

Results

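The insulin-like growth factor (IGF) genes examined here are 2 ligands (Igf1, Igf2), 2 receptors (Igf1r, Igf2r) and 6 secreted binding proteins (Igfbp2 to Igfbp7). The 10 genes were chosen as a family by symbol, without Igfbp1. They and the lists of other genes below were chosen with earlier results of these data known. Each of the 10 was found once among the 42979 genes of a mouse table and once among the 63652 genes of a human table. HT29, an established human colorectal adenocarcinoma line, was grown under the skin of nude mice for 4 weeks. Laminin tumours (3) came from HT29 xenografts that overexpress mouse laminin alpha 1 chain (gene Lama1), part of a laminin found in basement membranes, and control tumours (3) are labelled HT29 xenograft controls. All 6 tumours share the cell line and the host, and nude mice lack mature T cells. No source used here gives the vector, its promoter, what the control cells carried, the age of the mice, or whether the cells were 1 clone. The human table stands for the grafted tumour cells, and the mouse table for the host tissue together with the laminin transgene.

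IGF1 and IGF2 are secreted growth factors that signal for growth and survival through the IGF1 receptor, a tyrosine kinase that acts through IRS adaptors, PI3 kinase and AKT. The IGF2 receptor, also the cation-independent mannose 6-phosphate receptor, takes up IGF2 for breakdown in lysosomes and carries lysosomal enzymes. The binding proteins hold IGFs outside the cell, where they can store them or keep them from the receptor until proteases cut them. In solid tumours, fibroblasts and vessel-associated cells are known sources of IGF1 and of several binding proteins.

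The files hold 1 value per group and gene, set by the authors, so no value per tumour and no spread between tumours can be given. Levels are written as parts per 1000000 (ppm) of each table's summed signal. The values follow numbers of reads with no correction for gene length, and lengths of mouse or human transcripts were not used here, so a level says nothing of how strongly a gene was expressed beside another, also where a level chose which gene of a list is named. Without strand, reads of overlapping genes cannot be told apart. Significance is that of the authors' test, at a q-value under 0.05 for mouse genes and, for human genes, at their p-value adjusted by the Benjamini-Hochberg method under 0.05. The overexpressed Lama1 had 1077 ppm in laminin tumours and 4.75 ppm in control tumours in the mouse table, 227-fold higher, and human LAMA1 had 0.978 ppm in laminin and 1.01 ppm in control tumours. The summed signal, in units of 1000000, was 951 in laminin and 969 in control tumours for the mouse table, and 891 in laminin and 893 in control tumours for the human table. From the steps between low values, 1 read was worth 0.103 to 0.254 ppm in laminin and 0.152 to 0.155 ppm in control tumours of the mouse table. For human genes 1 read was worth 0.0120 to 0.0129 ppm in laminin and 0.0126 to 0.0137 ppm in control tumours. The numbers of reads below rest on those steps and are summed over the 3 tumours of a group, and apart from values of 1 or 2 reads they are not split by tumour.

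In the host, Igfbp2 was the member that passed the authors' test, and it was higher in laminin tumours. The levels of the other 5 binding proteins were also above those of control tumours, and none of these passed. Of all tested mouse genes 46.5% had a higher level in laminin tumours. Of the 10 members, all were tested and all had a mean level of at least 1 ppm; 1 rose and 0 fell, against 3.54% of the 14339 tested mouse genes past the threshold, 0.579% higher and 2.96% lower. Unadjusted p-values under 0.05 were found for 2 members, Igfbp2 and Igfbp3.

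The host ligands and the IGF2 receptor were at lower levels in laminin tumours and the IGF1 receptor at a higher level, and none of the 4 passed. Igf1 (chromosome 10, 87859055 to 87937047, as the authors' table gives the locus, on mm10 per the submitters' processing notes) had 243 ppm in laminin tumours (955 to 2359 reads) and 298 ppm in control tumours (1927 to 1965 reads), and the authors' deposited table gave q = 0.897. Igf2 (chromosome 7, 142650767 to 142670356), a mostly fetal growth factor expressed from the paternal copy, had 10.2 ppm in laminin and 13.6 ppm in control tumours. This rested on 40 to 99 reads in laminin and 88 to 90 in control tumours, and q was 0.958 in the authors' deposited table. The antisense gene Igf2as shares its locus and was listed at 0 and 0.464 ppm in laminin and control tumours, at most 3 reads. Igf1r (chromosome 7, 67952256 to 68233667) had 102 ppm in laminin and 74.6 ppm in control tumours, a log2 ratio of 0.46, and the authors' deposited table gave p = 0.0749 and a q-value of 0.592. Igf2r (chromosome 17, 12682405 to 12868143) had 141 ppm in laminin and 183 ppm in control tumours, a log2 ratio of -0.38, and the authors' deposited table gave p = 0.141 and a q-value of 0.772.

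Igfbp2 (chromosome 1, 72824479 to 72852471) encodes a binding protein made widely in the fetus and raised in several cancers. It had 115 ppm in laminin tumours (452 to 1117 reads) and 45.4 ppm in control tumours (293 to 299 reads). The level was 2.53-fold higher, a log2 ratio of 1.34, and the authors' deposited table gave q = 0.00238. Its p of 5e-05 is the smallest in that table and is shared by 301 mouse genes, so Igfbp2 cannot be ranked among them.

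Igfbp3 (chromosome 11, 7206090 to 7213923) encodes the main carrier of IGFs in blood. It had 2109 ppm in laminin tumours (8303 to 20507 reads) and 953 ppm in control tumours (6164 to 6284 reads). The log2 ratio was 1.15, a level 2.21-fold higher, and the authors' deposited table gave p = 0.0056 and a q-value of 0.114, so Igfbp3 did not pass over the whole table. Igfbp4 (chromosome 11, 99041259 to 99052643), whose product is cut by the protease PAPP-A, had 3312 ppm in laminin and 2286 ppm in control tumours, a log2 ratio of 0.54, and the authors' deposited table gave q = 0.868. Igfbp5 (chromosome 1, 72858064 to 72874865), whose product binds extracellular matrix, had 2943 ppm and 2016 ppm in laminin and control tumours, a log2 ratio of 0.55, and the authors' deposited table gave q = 0.844. The loci of Igfbp2 and Igfbp5 follow each other on that chromosome. Igfbp7 (chromosome 5, 77310483 to 77408045), a low-affinity IGF binder found in vessel walls, had 2478 ppm in laminin and 1711 ppm in control tumours, a log2 ratio of 0.53, and the authors' deposited table gave q = 0.868. Igfbp4, Igfbp5 and Igfbp7 had nearly the same ratio, 1.45 to 1.46, and each rested on at least 11062 reads in control tumours. Igfbp6 (chromosome 15, 102144185 to 102149512), whose product prefers IGF2 over IGF1, had 83.6 ppm in laminin and 78.7 ppm in control tumours, and the authors' deposited table gave q = 0.996.

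**Figure D1:**
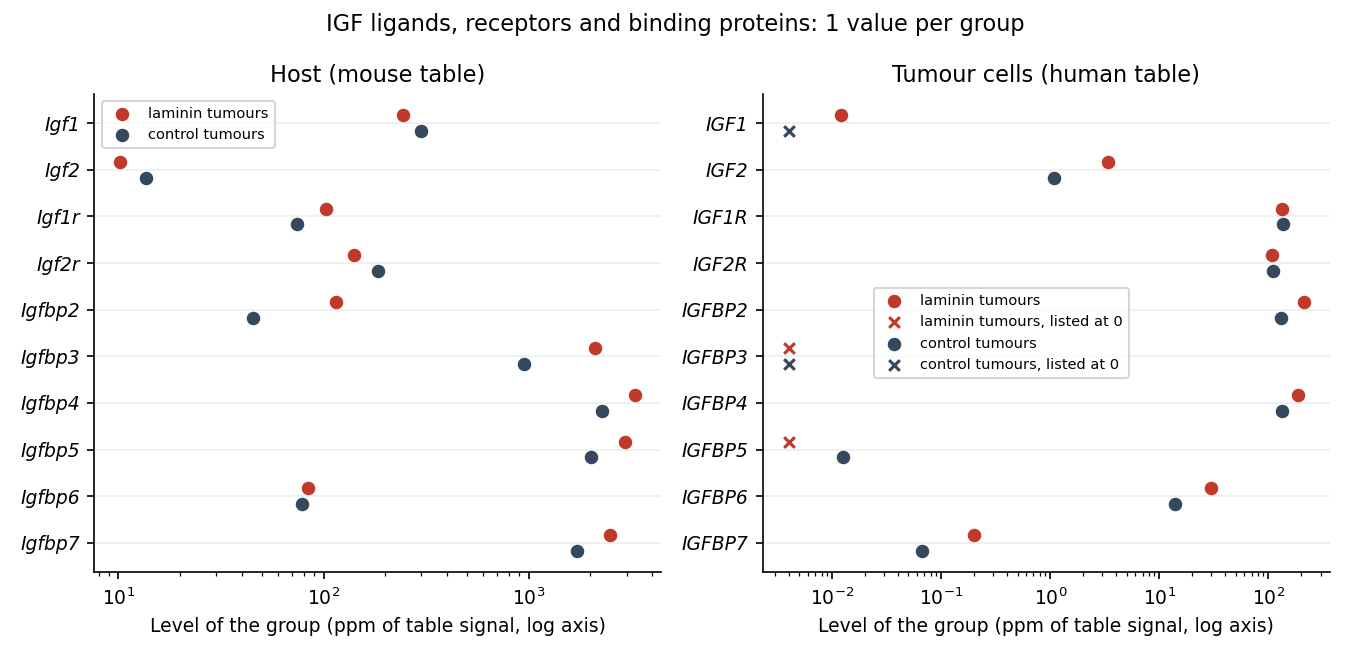
Level of each IGF gene in laminin tumours (red) and control tumours (dark), in ppm of the summed signal of the mouse table (left) or the human table (right), on log axes. Each point is 1 group value with no error, and crosses mark values listed at 0, drawn at the left edge. All 6 host binding proteins lie higher in laminin tumours, from 83.6 against 78.7 ppm for Igfbp6 to 3312 against 2286 ppm for Igfbp4. Of them only Igfbp2 passed the authors' test, and 46.5% of all tested mouse genes were higher in laminin tumours. The human points for IGF1, IGFBP3 and IGFBP5 stand at 0 or a single read.

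The 6 host binding proteins together held 1.10% of the mouse signal in laminin tumours and 0.709% in control tumours. Most of this came from Igfbp3, Igfbp4, Igfbp5 and Igfbp7, which did not pass. Igfbp2, which passed, had 115 ppm in laminin and 45.4 ppm in control tumours. The sum itself was not tested. The median log2 ratio of the 6 was 0.54, against -0.03 over all tested mouse genes.

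Markers of fat, muscle and skin were lower in the host tissue of laminin tumours. The summed level of 8 adipocyte markers was 270.4 ppm in laminin and 5829 ppm in control tumours, with single markers between 0.103 and 159 ppm in laminin and between 11.5 and 2468 ppm in control tumours. The 8 skeletal muscle markers summed to 712 ppm in laminin and 4377 ppm in control tumours, with single markers at 8.21 to 270 ppm and 141 to 1301 ppm. The 8 keratinocyte markers summed to 17.5 ppm in laminin and 1602 ppm in control tumours, with single markers at 0 to 10.7 ppm and 28.0 to 447 ppm, and Krt1 was listed at 0 in laminin tumours. Of these markers 6 adipocyte, 7 muscle and 3 keratinocyte genes fell and 0 rose. Of all tested mouse genes 2.96% were called lower and 0.579% higher. The other markers of these lists were lower too and did not pass, at q-values of 0.112 to 0.879 in the authors' deposited table. Car3, Myh4 and Krt10, named by their control signal, were at 87.4, 120.1 and 2.94 ppm in laminin tumours against 2468, 1301 and 447 ppm in control tumours.

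Summed markers of the other host cell types were closer between groups, and single markers varied. Of all tested mouse genes 3.54% passed. The 8 fibroblast markers summed to 35223 ppm in laminin and 37189 ppm in control tumours, with Col3a1 at 12985 and 14130 ppm, and 0 of the 8 passed. The 8 pericyte and smooth muscle markers summed to 2711 and 2471 ppm in laminin and control tumours, with Acta2 at 1135 and 804 ppm. Of these 1 fell, the muscle gene Des that this list shares with the skeletal muscle list. Des had 138 ppm in laminin and 331 ppm in control tumours and is part of the sum. The 8 endothelial markers summed to 1241 and 1175 ppm, with Pecam1 at 373 and 370.3 ppm, and 0 passed. The 7 macrophage markers found summed to 5458 and 4766 ppm, with Lyz2 at 3448 and 2980 ppm, and 1 fell, Cd14. In such bulk tumours fewer cells of a type and less RNA per cell cannot be told apart, and the part of tissue makeup in the IGF gene values was not tested. Leaving the fat, muscle and skin markers out of the summed signal changes only the scaling, alike for all mouse genes. It gave log2 ratios of 1.35 for Igfbp2 and 1.16 for Igfbp3, and cannot show the part of tissue makeup.

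**Figure D2:**
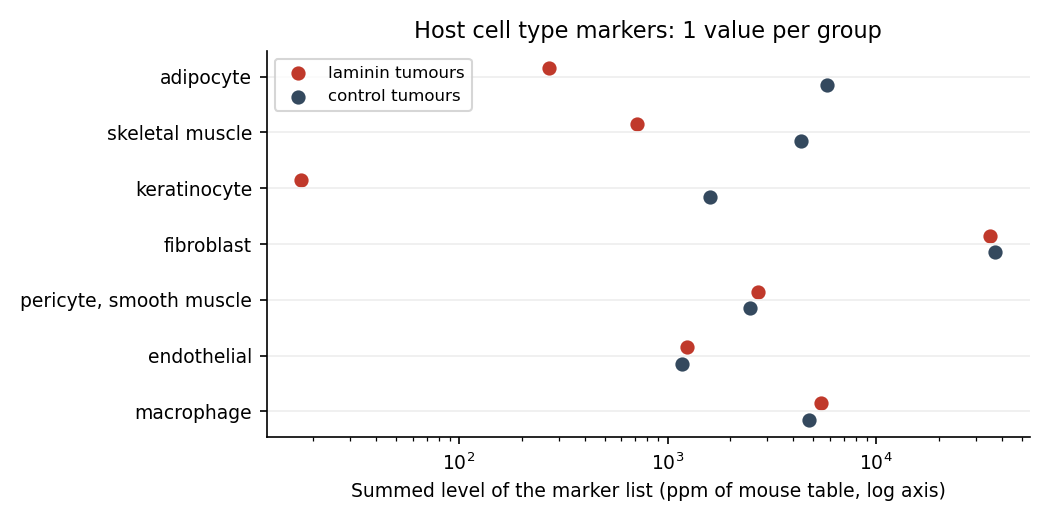
Summed level of each host marker list in laminin tumours (red) and control tumours (dark), in ppm of the mouse table on a log axis, 1 group value per point and no error. The adipocyte, skeletal muscle and keratinocyte sums lie far lower in laminin tumours, at 270.4, 712 and 17.5 ppm against 5829, 4377 and 1602 ppm in control tumours. The fibroblast, pericyte, endothelial and macrophage sums lie closer together, and the pericyte sum includes Des, which fell.

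In the tumour cells, the ligand IGF2 and the binding proteins IGFBP2, IGFBP4 and IGFBP6 rose in laminin tumours, and neither receptor passed the test. Of the 10 members 7 were tested and 6 had a mean level of at least 1 ppm. 4 rose and 0 fell, against 8.08% of the 25838 tested human genes past the threshold, 5.63% higher and 2.45% lower. Of those 25838 genes, 15565 had a mean level of at least 1 ppm, and the share past the threshold among them was not computed. Each of the 4 had p = 5e-05 in the authors' deposited table, the smallest there and shared by 1067 human genes, which gives a Benjamini-Hochberg adjusted p of 0.00121. The median log2 ratio of the 7 tested members was 0.69, and that of all tested human genes was 0.00 at 2 decimals (-0.00273).

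IGF2 (ENSG00000167244) had 3.40 ppm in laminin tumours (263 to 283 reads) and 1.07 ppm in control tumours (78 to 85 reads). It was 3.18-fold higher, a log2 ratio of 1.67, from a low level. With 5 ppm added to both levels the log2 ratio was 0.47, and IGF2 was not among the genes tested at 5 ppm or more. INS, the readthrough gene INS-IGF2 and the antisense gene IGF2-AS, which the table places at the same locus, were listed at 0 in both groups. IGFBP6 (ENSG00000167779), whose product has IGF2 as its preferred ligand, had 29.6 ppm in laminin tumours (2291 to 2466 reads) and 13.9 ppm in control tumours (1012 to 1097 reads), 2.14-fold higher. IGFBP2 (ENSG00000115457) had 212 ppm in laminin tumours and 131 ppm in control tumours, 1.61-fold higher, a log2 ratio of 0.69. IGFBP4 (ENSG00000141753) had 188 ppm in laminin tumours and 133 ppm in control tumours, 1.42-fold higher, a log2 ratio of 0.50. The receptor gene IGF1R (ENSG00000140443) had 134 ppm in laminin and 137 ppm in control tumours, with p = 0.804 in the authors' deposited table. IGF2R (ENSG00000197081) had 109 ppm in both groups (108.7 in laminin, 109.5 in control tumours), with p = 0.932 in the authors' deposited table.

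The remaining human members were at or near 0. IGF1 (ENSG00000017427) was at 0.0120 ppm in laminin tumours, which is 1 read in 1 tumour, and at 0 in control tumours. IGFBP5 (ENSG00000115461) was at 0 in laminin tumours and at 0.0126 ppm in control tumours, again 1 read in 1 tumour. IGFBP3 (ENSG00000146674) was listed at 0 in both groups. IGFBP7 (ENSG00000163453) had 0.198 ppm in laminin tumours and 0.0658 ppm in control tumours, with p = 0.433 in the authors' deposited table. This is the signal of 15 to 17 and about 5 reads. Neither value was a whole-number sum of the read steps, so these read numbers are approximate. The log2 ratio of IGFBP7 was 1.59, and 0.04 with 5 ppm added to both levels. IGFBP1, the binding protein gene outside the family list used here, was at 1 read in laminin tumours and 0 in control tumours in the human table, and listed at 0 in both groups in the mouse table.

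**Figure D3:**
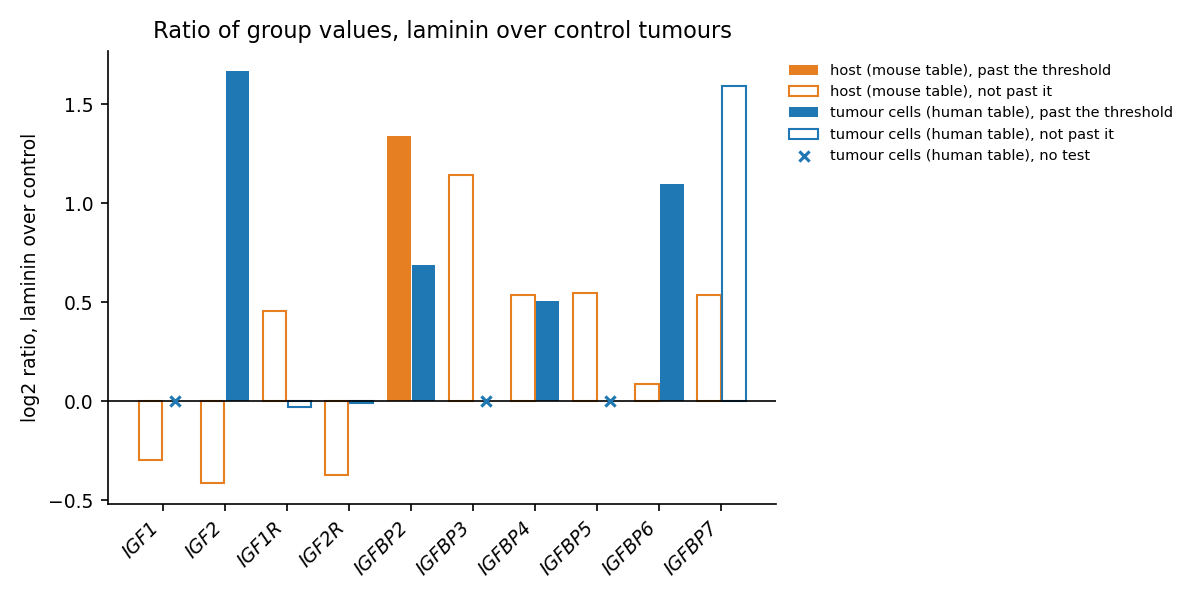
Log2 ratio (laminin over control) of each IGF gene in the mouse table (orange) and the human table (blue), with filled bars for genes past the threshold, open bars for those that were tested and did not pass, and crosses at 0 for human genes with no test. The filled bars are host Igfbp2 (1.34) and human IGF2 (1.67), IGFBP2 (0.69), IGFBP4 (0.50) and IGFBP6 (1.10). The open human IGFBP7 bar rests on about 17 reads or fewer in a group.

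The tumour cells carried a part of the family and the host all of it, and 1 ppm stands for more reads in the human table. The tumour cells carried IGF2, both receptors, IGFBP2, IGFBP4 and IGFBP6 at 1 ppm or more, and the host carried all 10 genes at that level. Whether reads of 1 species were counted under the other was not tested gene by gene, since that depends on the likeness of each gene's sequence, and the shares below are descriptions. For 8 epithelial genes of the tumour cells (a list chosen after the values were seen), mouse reads were at most 0.0320% of human reads of the same symbol in laminin tumours and at most 0.405% in control tumours, where the host keratinocyte markers were also higher. For Igfbp2 the mouse reads were 3.90% of the human reads in laminin and 2.94% in control tumours. All these shares use the mean of the 3 read steps of a group. Mouse Igfbp2 had 452 to 1117 reads in laminin tumours over the range of steps, so its shares cannot be ranked between groups. In the other direction, human IGFBP7 reads were 0.111% and 0.0452% of the mouse reads in laminin and control tumours. Across 8 fibroblast markers of the host, human reads were 0 to 11.6% of the mouse reads in laminin tumours (median 0.117%) and 0 to 4.65% in control tumours (median 0.0399%).

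Where a gene was measured in both species, the ratios did not always match. IGFBP2 passed in both tables, at log2 ratios of 1.34 in the host and 0.69 in the tumour cells. IGFBP4 had like ratios, 0.54 in the host and 0.50 in the tumour cells, and passed in the tumour cells. IGF2 stood lower in laminin tumours in the host (-0.42, not passed) and rose in the tumour cells (1.67). IGFBP6 had 0.09 in the host (not passed) and rose in the tumour cells (1.10). IGF1R had 0.46 in the host and -0.03 in the tumour cells, and neither passed. IGF2R had -0.38 in the host and -0.01 in the tumour cells, and neither passed. IGFBP7 had 0.53 in the host and 1.59 in the tumour cells, the latter on about 17 reads or fewer in a group, and neither passed. The difference between species was not tested, since each table has its own scale and no value per tumour.

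**Figure D4:**
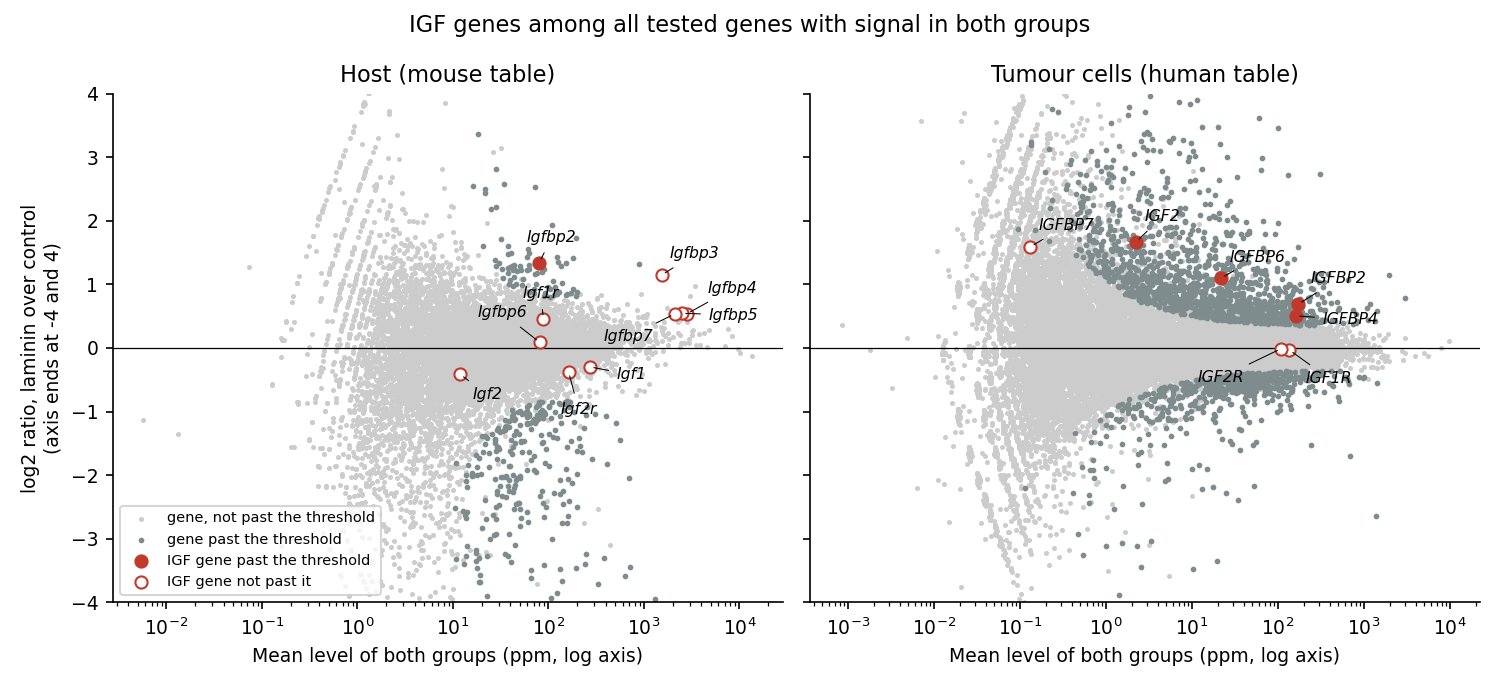
Log2 ratio of laminin over control against the mean level of both groups (ppm, log axis) for all tested genes with signal in both groups of the mouse table (left) and the human table (right), with genes past the threshold in dark grey and IGF genes circled in red (filled where past the threshold). Host Igfbp2 (log2 ratio 1.34) is the filled host point, host Igfbp3 (1.15) is open, and the human IGF1R and IGF2R points lie on the line of no difference.

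Of the other genes of the pathway, 13 passed in the tumour cells and 2 in the host. Of 79 symbols listed (some of them older names of the same gene), 71 were found in the human table and 57 were tested. Among the 57, 12 rose and 1 fell, against 8.08% of all tested human genes past the threshold, 5.63% higher and 2.45% lower. A mean level of at least 1 ppm was reached by 48 of the 57, and by 15565 of the 25838 tested human genes. For the mouse, 72 were found and 63 tested, and 1 rose and 1 fell, a share near the 3.54% of all tested mouse genes. The medians of the log2 ratio, 0.04 in the human table and -0.04 in the mouse table, were near those of all tested genes.

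Among 24 tested genes that carry the receptor signal, 6 rose and 1 fell in the tumour cells, against 5.63% higher and 2.45% lower of all tested human genes, and 0 passed in the host, against 3.54% of all tested mouse genes. IRS2, an adaptor that couples the insulin and IGF1 receptors to PI3 kinase, had 64.5 ppm in laminin and 25.3 ppm in control tumours, a log2 ratio of 1.35 with p = 5e-05 in the authors' deposited table. PIK3R1, the regulatory subunit of PI3 kinase, had 168 ppm in laminin and 86.7 ppm in control tumours, a log2 ratio of 0.95. The transcription factor genes FOXO1 and FOXO3, which AKT keeps out of the nucleus, rose to log2 ratios of 0.73 and 0.41. FOXO1 had 50.6 ppm in laminin and 30.5 ppm in control tumours, and FOXO3 had 71.2 ppm in laminin and 53.7 ppm in control tumours. The adaptor IRS1 had 64.1 ppm in laminin and 45.3 ppm in control tumours, and RICTOR, a subunit of mTOR complex 2, had 155 ppm in laminin and 113 ppm in control tumours. GRB10, an adaptor that restrains the insulin and IGF1 receptors, fell to 30.7 ppm in laminin tumours, against 46.4 ppm in control tumours. These 7 calls had adjusted p between 0.00121 and 0.0329. The kinases AKT2 (191 and 203 ppm in laminin and control tumours) and GSK3B (151 and 149 ppm) did not pass. In the host, the kinase gene Akt1 had 285 ppm in laminin and 259 ppm in control tumours and did not pass.

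The insulin receptor gene did not pass in either species. INSR had 54.7 ppm in laminin and 47.5 ppm in control tumours in the tumour cells, and its relative INSRR had 1.35 and 0.825 ppm. Host Insr had 143.5 ppm in laminin and 142.5 ppm in control tumours. Igfals, a liver gene whose product holds IGFs with IGFBP3 in blood, was in the host at 0.206 ppm in laminin tumours, or 2 reads in 1 tumour, and at 10.7 ppm in control tumours. It had q = 0.860 in the authors' deposited table and did not pass.

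Among binding protein proteases and their inhibitors 1 of 6 tested human genes was called, CTSD, against 8.08% of all tested human genes. Cathepsin D is a lysosomal protease that can cut binding proteins, and its gene had 373 ppm in laminin and 276 ppm in control tumours, a log2 ratio of 0.43 with an adjusted p of 0.0113. ADAM28 (24.7 and 28.6 ppm in laminin and control tumours) and PRSS23 (20.1 and 15.5 ppm) did not pass in the tumour cells. In the host 0 of 10 tested passed, against 3.54% of all tested mouse genes. Ctsd had 3524 and 3411 ppm and Prss23 had 612 and 511 ppm in laminin and control tumours. Pappa, which encodes PAPP-A, was at 30.3 ppm in laminin and 29.6 ppm in control tumours, and Stc1, whose product inhibits it, had 28.2 and 16.7 ppm. The authors' deposited table gave Stc1 p = 0.0396 and a q-value of 0.433.

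Around IGF2, the imprinted genes H19 and CDKN1C rose with it in the tumour cells. They were the calls among 8 tested genes of this list, against 8.08% of all tested human genes. H19, the maternally expressed noncoding neighbour of IGF2, had 6.33 ppm in laminin and 3.19 ppm in control tumours, a log2 ratio of 0.99. CDKN1C, a cell cycle inhibitor of the same imprinted region, had 14.0 ppm in laminin and 6.45 ppm in control tumours, a log2 ratio of 1.12. Both had p = 5e-05 in the authors' deposited table. IGF2BP3 (118 and 128 ppm in laminin and control tumours), which encodes a protein that binds IGF2 RNA, and MEST (144 and 156 ppm) did not pass. In the host 0 of 10 passed, against 3.54% of all tested mouse genes. Host Mest had 109 ppm in laminin and 91.5 ppm in control tumours. Host H19 had 136 ppm in laminin and 177 ppm in control tumours, lower in laminin tumours like host Igf2.

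In the mannose 6-phosphate pathway, which marks the lysosomal enzymes that the IGF2 receptor carries, 0 of 4 genes passed in either species. Of all tested genes 3.54% passed in the mouse table and 8.08% in the human table. M6PR had 65.4 and 70.6 ppm and GNPTAB 54.2 and 62.9 ppm in laminin and control tumours in the human table. In the mouse table M6pr had 208 and 168 ppm and Gnptab 99.8 and 114 ppm.

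In the growth hormone axis, the host receptor gene Ghr fell, 1 of 6 tested, against 2.96% lower of all tested mouse genes. Growth hormone acts through this receptor to raise IGF1, and fat, muscle and liver are rich in it. Ghr had 79.3 ppm in laminin tumours (312 to 771 reads) and 315 ppm in control tumours (2035 to 2075 reads), a log2 ratio of -1.99, and the authors' deposited table gave q = 0.00238. The summed adipocyte and muscle markers given above were lower in laminin tumours too, and their part in the value of Ghr was not tested. Jak2 (166 and 156 ppm in laminin and control tumours) and Socs3 (118 and 84.8 ppm) did not pass. In the tumour cells 0 of 6 genes of this list passed, against 8.08% of all tested human genes. Among the 6 were STAT5B (63.9 and 62.9 ppm) and STAT5A (23.7 and 18.7 ppm).

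Among relatives of the binding proteins, which share their cysteine-rich N-terminal domain, 1 of 8 tested genes rose in the host, against 0.579% of all tested mouse genes, and 3 of 6 rose in the tumour cells, against 5.63% of all tested human genes. In the host Esm1, the endothelial tip cell proteoglycan endocan, had 58.4 ppm in laminin and 23.9 ppm in control tumours, a log2 ratio of 1.29, and the authors' deposited table gave q = 0.00642. Host Cyr61 had 454 ppm in laminin and 256 ppm in control tumours, and Ctgf had 2126 ppm in laminin and 1375 ppm in control tumours. Neither passed, at q-values of 0.0680 for Cyr61 and 0.701 for Ctgf in the authors' deposited table. The 3 human genes belong to the CCN family of matrix proteins. CTGF had 28.5 ppm in laminin and 15.9 ppm in control tumours, CYR61 had 9.11 and 4.33 ppm, and NOV had 6.29 and 2.30 ppm, each with p = 5e-05 in the authors' deposited table. WISP1 (0.956 and 0.309 ppm in laminin and control tumours) and KAZALD1 (5.13 and 5.80 ppm) did not pass.

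**Figure D5:**
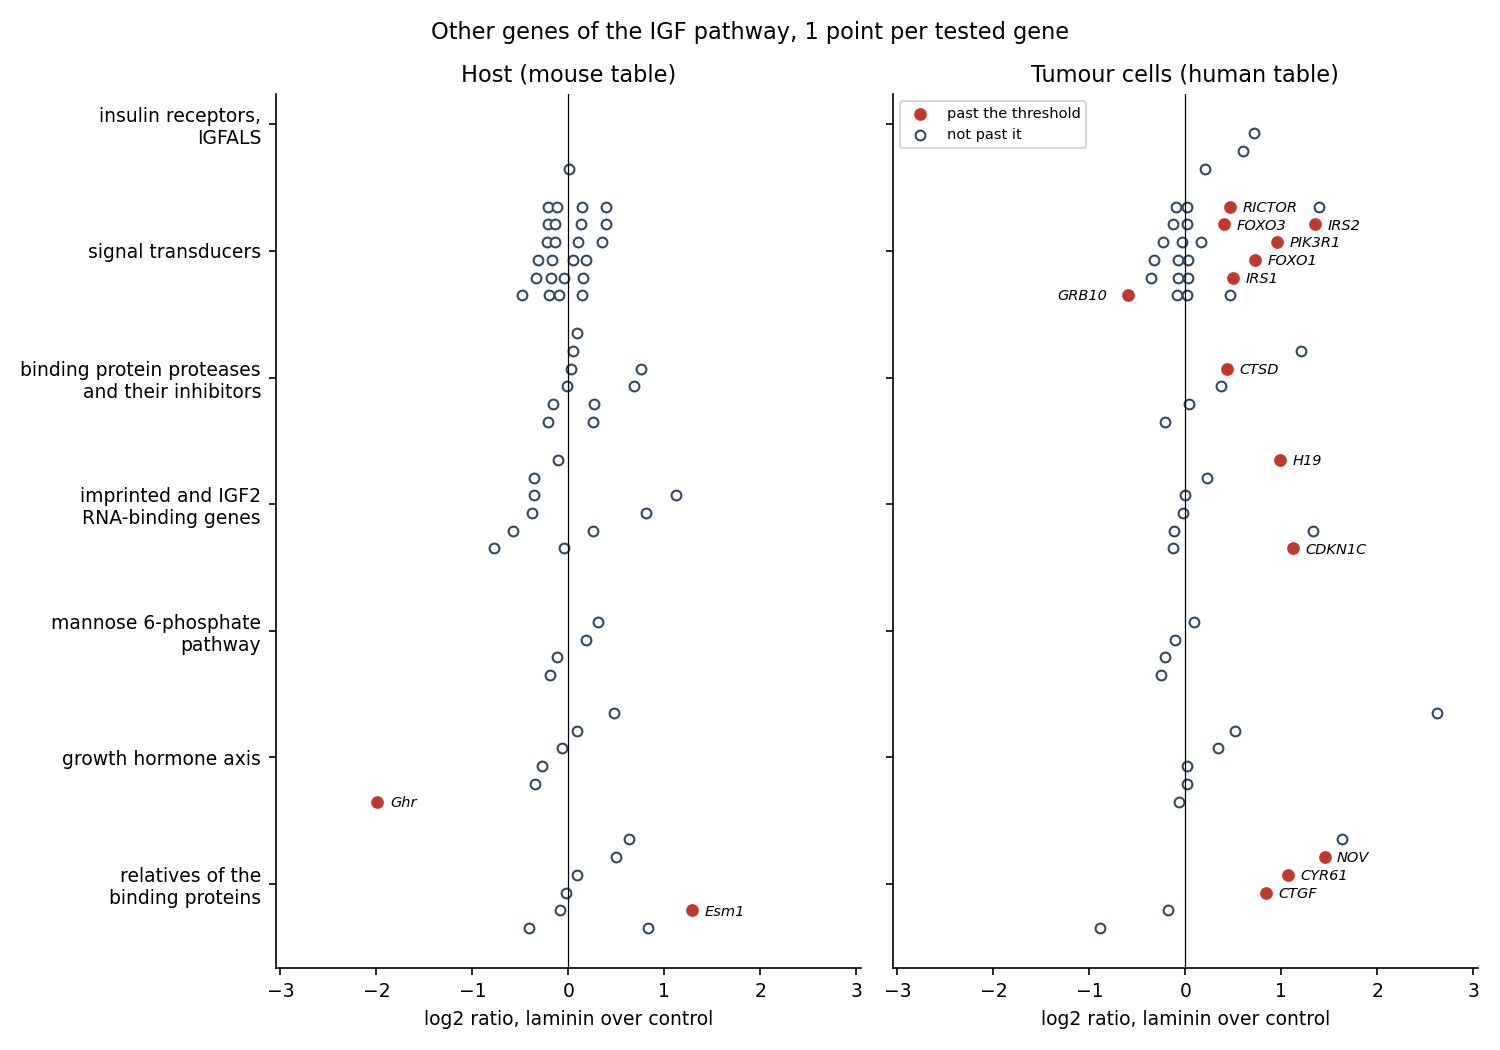
Log2 ratio of laminin over control for each tested gene of 7 lists of the IGF pathway (rows) in the mouse table (left) and the human table (right), with filled red points for genes past the threshold and open points for the others, and vertical spread within a row for legibility only. Ghr and Esm1 are the filled host points, 13 human points are filled, and host Igfals (log2 ratio -5.70) and human PLG (listed at 0 in control tumours) lie outside the axis and are not drawn.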

How the data were processed

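RNA of 3 laminin and 3 control xenografts was sequenced from poly-A selected libraries, per the labels' protocols, which describe no step that keeps the strand. The submitters' processing notes name TopHat2, Cufflinks, hg38 and mm10, without roles or versions. How reads of the species were kept apart is not given in the sources used here. Per the file headers, the deposited tables are Cuffdiff-type gene comparisons with 1 signal value per group, a log2 ratio of laminin over control and a p-value, and in the mouse table also a q-value, all set by the authors. The scale of the deposited signal is not stated. None of the 10 human loci overlapped its RefSeq position on GRCh38, so human coordinates are not printed.

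The mouse comparison was present in 3 copies with the same values and used once, and 1 line with shifted cells was left out. For each symbol the row with the largest summed signal was kept. Signal was divided by the mean of both groups' sums (ppm). Human p-values were adjusted over all 25838 tested genes by the Benjamini-Hochberg method, and for mouse genes the largest gap between that adjustment and the deposited q-value was 0.000307. Read numbers are the signal over the largest and the smallest of 3 step sizes per group. Shares of reads between species use the signal over the mean of the 3 step sizes. Of 2000 low values (up to 25 reads) 91.1% and 92.05% in laminin and control tumours of the mouse table, and 66.85% and 65.8% of the human table, were whole-number sums of these steps within rounding at the value's significant digit 6 plus 1e-06 of the value, against at most 0.3% of values shifted off them. Python 3.11.15, numpy 2.4.6 and pandas 2.3.3 were used, and the calculations were tested on simulated data.

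The members and lists were chosen with earlier results of these data known. All members are named. From each pathway list the genes past the threshold and the 2 of highest level not past it are named, and marker lists are given by their sums and the member of highest control level, with Igfbp1, Pappa, Stc1, Krt1, Des and Cd14 added after their values were seen. The values of 1 gene that this rule names are not reported here. Alternatives were level filters (1 and 5 ppm), a threshold of 0.1, Bonferroni adjustment, added constants and other scalings. The design text calls the tumours independent. The p-values are those of the authors' test, run on these tumours alone, and the part of the spread between tumours in them was not examined. That spread may be technical.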

Additional observations from a re-analysis of the deposited data

How the results depend on the processing

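The counts of called genes stayed within 1.5 times under level filters of 1 and 5 ppm and at a threshold of 0.1, in both tables. At 5 ppm or more, human IGF2 was no longer tested and 3 human members rose. At 0.1 host Cyr61 and human WISP1 joined the calls. Under Bonferroni adjustment 0 host members, 0 human members, 0 host pathway genes and 0 human pathway genes were called, because the smallest deposited p of 5e-05 cannot pass that adjustment over either table. Before adjustment 2 host members and 4 human members had p under 0.05. Recomputed member ratios kept their direction in 111 cases. In 1 case, human IGF2R relative to the median gene, the log2 ratio was 0.0102 in place of -0.0105. A constant added to both levels cannot change a direction, and using all rows of a symbol repeated the main value. The other scalings shift all genes of a table alike, so only ratios near 0 could change direction. With 5 ppm added to both levels the log2 ratio of human IGF2 was 0.47 and that of IGFBP7 was 0.04, by construction of the added constant at low levels. The largest scaling shift was -0.041 on the log2 scale, for the upper quartile of the mouse table. Leaving out single tumours was not possible, since the tables hold 1 value per group. No paired analysis was possible because of this, and because the labels share no replicate numbers. Host reads were fewer than human reads at the same ppm, and the steps of the laminin libraries in the mouse table differed by 2.47 times, against 1.02 times for control libraries, so host values of laminin tumours rest on unequal depths.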
